A study of Mus musculus with 4 samples.

Results

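The genes that carry bile acid synthesis in mouse liver, together with the repressor Nr0b2 (SHP), were described from RNA-seq of fasted livers. The set holds 10 genes, chosen by gene name from the 54532 genes of the deposited tables, and all 10 were found. They are Cyp7a1, Cyp8b1, Cyp27a1, Cyp7b1, Hsd3b7, Akr1d1, Amacr, Slc27a5, Baat and Nr0b2. The series' own libraries are 4 livers labelled as lacking Cpt1a in the liver only, from mice fasted for 24 h. Cpt1a encodes the outer membrane enzyme that admits long-chain fatty acids to mitochondrial oxidation. A Cpt2 group and a reference group are known here only through 3 comparison tables that the authors deposited. Cpt2 encodes the partner enzyme of the inner mitochondrial membrane. The table headers add AlbCre to the names of both knockout groups, and call the reference group Rab30Cpt2_f, which the sources used here do not spell out. The design text names littermate controls, says that all mice were fasted, and assigns the Cpt2 samples to an earlier series. The labels give no sex, age or strain and do not say whether the groups were sequenced together, so sequencing batch and genotype cannot be told apart in any comparison between groups.

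Bile acids are made from cholesterol in hepatocytes. In the classic route Cyp7a1 sets the rate, and in the alternative route Cyp27a1 and Cyp7b1 act first. Both routes share enzymes that remodel the sterol ring and shorten the side chain, and the acids are then joined to taurine or glycine. Bile acids that return to the liver activate the receptor FXR (Nr1h4), which induces Nr0b2. Nr0b2 has no DNA-binding domain and represses Cyp7a1 and Cyp8b1 through the receptors NR5A2 (LRH-1) and HNF4A.

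Promoters are shown for the 3 genes with a RefSeq promoter entry whose values bear most on the comparisons. These are Nr0b2 and Akr1d1, whose levels in the Cpt2 group were the furthest below the reference group among the 5 members with an entry, and Cyp8b1, which was not lower there. Each entry spans 250 bases before the gene start and 50 bases from it onward (GRCm38.p6). The windows are chr4:133553126-133553425 on the plus strand for Nr0b2, chr6:37529923-37530222 on the plus strand for Akr1d1 and chr9:121916256-121916555 on the minus strand for Cyp8b1. Capitals mark matches, on either strand, to the motifs described next.
Nr0b2: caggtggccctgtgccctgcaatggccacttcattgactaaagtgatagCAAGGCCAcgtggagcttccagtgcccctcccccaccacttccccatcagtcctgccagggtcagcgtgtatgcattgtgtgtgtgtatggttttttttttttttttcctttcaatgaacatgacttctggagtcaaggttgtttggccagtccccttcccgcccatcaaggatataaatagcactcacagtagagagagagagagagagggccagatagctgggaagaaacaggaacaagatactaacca
Akr1d1: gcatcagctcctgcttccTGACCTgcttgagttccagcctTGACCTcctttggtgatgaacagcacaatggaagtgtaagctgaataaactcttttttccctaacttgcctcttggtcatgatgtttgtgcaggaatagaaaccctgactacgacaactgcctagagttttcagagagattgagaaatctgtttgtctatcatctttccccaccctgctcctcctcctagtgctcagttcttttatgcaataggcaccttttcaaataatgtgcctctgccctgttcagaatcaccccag
Cyp8b1: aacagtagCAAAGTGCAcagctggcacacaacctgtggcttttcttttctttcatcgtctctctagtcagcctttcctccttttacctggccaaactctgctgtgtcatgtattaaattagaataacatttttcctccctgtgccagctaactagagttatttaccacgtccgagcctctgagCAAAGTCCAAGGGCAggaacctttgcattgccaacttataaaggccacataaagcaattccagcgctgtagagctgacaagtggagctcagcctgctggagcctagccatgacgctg

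The scan looked for the NR5A2 element CAAGGNCA, the HNF4A element CAAAGNNCA, the D-box TTANGTAA, the HNF1 element GTTAAT, the nuclear receptor element AGGTCA, and the FXR inverted repeat of AGGTCA copies with 1 base between them. Both strands were read, and matches of different motifs could overlap. Nr0b2 held 1 NR5A2 element, at positions -201 to -194 from the gene start. Cyp8b1 held 2 HNF4A elements and 1 NR5A2 element, and the HNF4A match nearer to the gene start overlapped the NR5A2 match, which began at position -60. Akr1d1 held 2 AGGTCA elements and no match to the NR5A2 or HNF4A letters. Among 32851 promoters of the same length, 6.71% held the NR5A2 letters, 6.36% the HNF4A letters and 16.3% an AGGTCA element. The D-box was in 2.32% of promoters, the HNF1 element in 7.10% and the FXR inverted repeat in 0.00913%, and none of these was in the 5 promoters of the members. The FXR repeat was sought as an exact match, which only 3 of the 32851 promoters held. Its absence therefore does not show that a promoter lacks an FXR element. The other members with an entry were Cyp27a1, with no match, and Hsd3b7, with 1 HNF4A element. Cyp7a1, Cyp7b1, Amacr, Slc27a5 and Baat had no entry.

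The 4 livers had 14106038, 13138884, 14116441 and 13682887 counts. The labels do not say whether they are separate mice, and the spread among these libraries may therefore be technical. Cpt1a itself was at 24.4, 28.6, 31.1 and 36.9 FPKM (read counts scaled to gene length and library size) in livers 1 to 4. It was lower in the knockout than in the reference group, with a log2 fold change of -2.79 (adjusted p = 5.27e-51) by the authors' deposited table. The Cpt2 transcript was not called different between the Cpt2 group and the reference group by the authors' deposited table (log2 fold change -0.07, adjusted p = 0.837), so it does not check that group's label. Hepatocyte markers summed to between 23246 and 32241 FPKM in the 4 livers, bile duct markers to between 12.7 and 16.3 FPKM, and Kupffer cell markers to between 107 and 136 FPKM. No marker of these lists was at 0 in all 4 livers. Alb alone was between 12257 and 20761 FPKM, so the hepatocyte sum says little about the less abundant markers.

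Cyp7a1 (ENSMUSG00000028240, GRCm38 chromosome 4, 6265612 to 6275633, minus strand), the rate-limiting enzyme of the classic route, was at 29.2, 41.3, 51.0 and 13.6 FPKM in livers 1 to 4. Liver 4 was lowest and liver 3 highest, a 3.75-fold range, with a mean of 33.8 ± 16.1 FPKM (SD, n = 4). Cyp8b1 (ENSMUSG00000050445, chromosome 9, 121914356 to 121916305, minus strand), which directs synthesis toward cholic acid, was at 347, 336, 364 and 190 FPKM. It was the most abundant of the 10 genes, at 309 ± 80.6 FPKM (SD, n = 4), and livers 1 to 3 lay close together above liver 4. Within a liver the FPKM of Cyp8b1 was 11.9, 8.14, 7.14 and 13.9 times that of Cyp7a1.

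The alternative route split into an even and an uneven gene. Cyp27a1 (ENSMUSG00000026170, chromosome 1, 74713574 to 74737892, plus strand), the mitochondrial sterol hydroxylase that also acts on the side chain, was at 180, 165, 167 and 158 FPKM. Its mean was 167 ± 9.05 FPKM (SD, n = 4), the narrowest relative spread of the 10 genes. Cyp7b1 (ENSMUSG00000039519, chromosome 3, 18071950 to 18243338, minus strand), the oxysterol hydroxylase of the route, was at 55.2, 54.2, 27.6 and 21.8 FPKM, or 39.7 ± 17.5 (SD, n = 4). Livers 1 and 2 were above livers 3 and 4 for this gene, and its level was 0.307, 0.328, 0.166 and 0.138 times that of Cyp27a1 in livers 1 to 4.

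For the ring steps, Akr1d1 (ENSMUSG00000038641, chromosome 6, 37530173 to 37568815, plus strand), the steroid reductase that saturates the ring, was at 33.0, 44.0, 40.2 and 32.8 FPKM. Its mean was 37.5 ± 5.53 FPKM (SD, n = 4), and livers 1 and 4 were nearly equal below livers 2 and 3. Hsd3b7 (ENSMUSG00000042289, chromosome 7, 127800604 to 127803802, plus strand), the hydroxysteroid dehydrogenase of both routes, had only 1, 0, 33 and 10 counts, or 0.0241, 0, 0.751 and 0.230 FPKM. In the GENCODE annotation of mouse release M21, whose coordinates and lengths equal the authors' for all 10 genes, 62.0% of its 2769 exonic bases also lie in exons of Gm49388 on the same strand. A further annotated gene on the opposite strand, 9430064I24Rik, shares 62.4% of them, and only 23 bases (0.831%) lie in no other gene's exon when strand is ignored. Gm49388 was at 0 counts in all 4 livers, and 9430064I24Rik at 0, 3, 0 and 3 counts. How the authors' counter treated reads that fall in several genes is not given, so the part of this overlap in the low Hsd3b7 count was not tested, and the count is not read here as a transcript level. None of the other 9 genes shared an exonic base with another annotated gene.

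**Figure D1:**
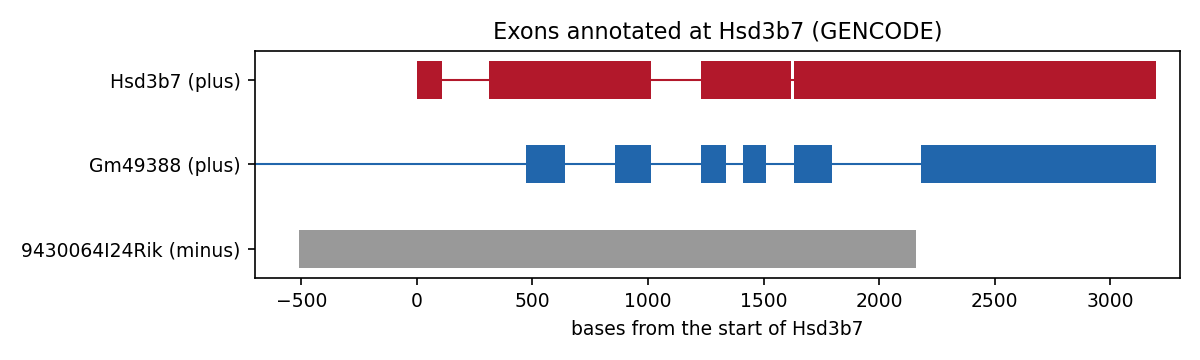
Exons annotated at Hsd3b7, in bases from its start, with 1 row per gene and boxes for exons merged over transcripts. Gm49388 continues to the left of the drawn window, and together with 9430064I24Rik it covers all but 23 of the 2769 exonic bases of Hsd3b7.

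In the side chain and conjugation steps, Amacr (ENSMUSG00000022244, chromosome 15, 10981756 to 10996626, plus strand), the racemase that readies the side chain for peroxisomal oxidation, was at 52.6, 53.2, 55.4 and 46.7 FPKM. Slc27a5 (ENSMUSG00000030382, chromosome 7, 12988346 to 12998192, minus strand), the bile acid CoA ligase, was at 284, 186, 205 and 162 FPKM. Baat (ENSMUSG00000039653, chromosome 4, 49489422 to 49506557, minus strand), which joins the CoA ester to taurine or glycine, was at 145, 126, 131 and 106 FPKM. Liver 1 was highest and liver 4 lowest for both conjugation genes, with means of 209 ± 53.1 FPKM for Slc27a5 and 127 ± 16.1 FPKM for Baat (SD, n = 4 each), while Amacr at 52.0 ± 3.73 FPKM (SD, n = 4) varied little. The repressor Nr0b2 (ENSMUSG00000037583, chromosome 4, 133553376 to 133556536, plus strand) was at 9.36, 5.70, 9.80 and 17.6 FPKM, or 10.6 ± 5.0 (SD, n = 4). Here liver 4 was highest and liver 2 lowest, a 3.09-fold range.

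**Figure D2:**
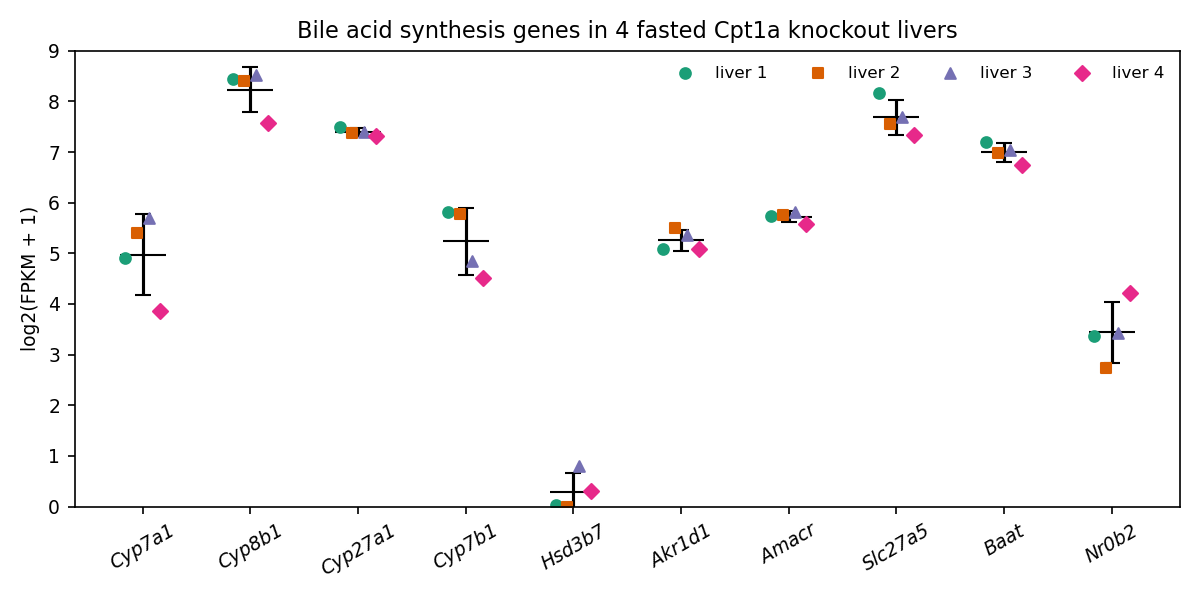
Level of each gene on the log2(FPKM + 1) scale in the 4 Cpt1a knockout livers, with 1 marker shape per liver and the mean and SD in black. Cyp8b1 is the most abundant gene at a mean of 309 FPKM, and Hsd3b7 lies near 0.

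By mean FPKM the order was Cyp8b1, Slc27a5, Cyp27a1, Baat, Amacr, Cyp7b1, Akr1d1, Cyp7a1, Nr0b2 and Hsd3b7. The order from Cyp8b1 to Amacr held in each of the 4 livers, although the ranges over livers of Cyp8b1 and Slc27a5, and of Slc27a5 and Cyp27a1, overlapped. Amacr and Cyp7b1, and Cyp7b1 and Akr1d1, kept their order in 2 of 4 livers each, and Akr1d1 and Cyp7a1, and Cyp7a1 and Nr0b2, in 3 of 4. The ranges over livers overlapped for each of these 4 pairs.

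Cyp7a1, Cyp7b1 and Nr0b2 were the most variable apart from Hsd3b7, with coefficients of variation of 47.8%, 44.0% and 47.2%, beside counting errors of 2.15%, 2.76% and 7.33%. Cyp27a1 and Amacr were the steadiest, at 5.41% and 7.17%, beside counting errors of 1.34% and 2.19%. On the log2(FPKM + 1) scale the SD was 0.80 for Cyp7a1, 0.66 for Cyp7b1 and 0.60 for Nr0b2, against a median of 0.20 over the 10859 genes with a mean FPKM of at least 1. Without liver 4 the SD of Cyp7a1 was 0.40 and that of Cyp8b1 was 0.06, where it was 0.44 over all 4 livers. Of the 9 enzymes, 8 were lowest in liver 4, and Nr0b2 was highest there. The exception among the enzymes was Hsd3b7, whose count is not read here as a transcript level. For Akr1d1 the margin was small, at 32.8 FPKM in liver 4 and 33.0 FPKM in liver 1. Among those 10859 genes, 24.2% were lowest in liver 4 and 19.9% highest. A low level in liver 4 was not particular to this set. Among hepatocyte markers Cps1 was at 784, 580, 486 and 302 FPKM in livers 1 to 4 and Tat at 711, 671, 522 and 295. Alb, Apoa1, Apob, Serpina1e and Cyp2e1 were lowest in another liver. Of the markers of pericentral hepatocytes, Glul, Oat, Slc1a2, Lgr5, Axin2 and Gulo were lowest in liver 4, and Cyp2e1, Cyp1a2 and Rhbg were not. With counts scaled by the TMM method 7 of the 9 enzymes were lowest in liver 4, since Akr1d1 was then at 32.5 in liver 1 and 33.2 in liver 4. This count was made after the values were seen, and 4 livers are too few for a correlation between genes.

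**Figure D3:**
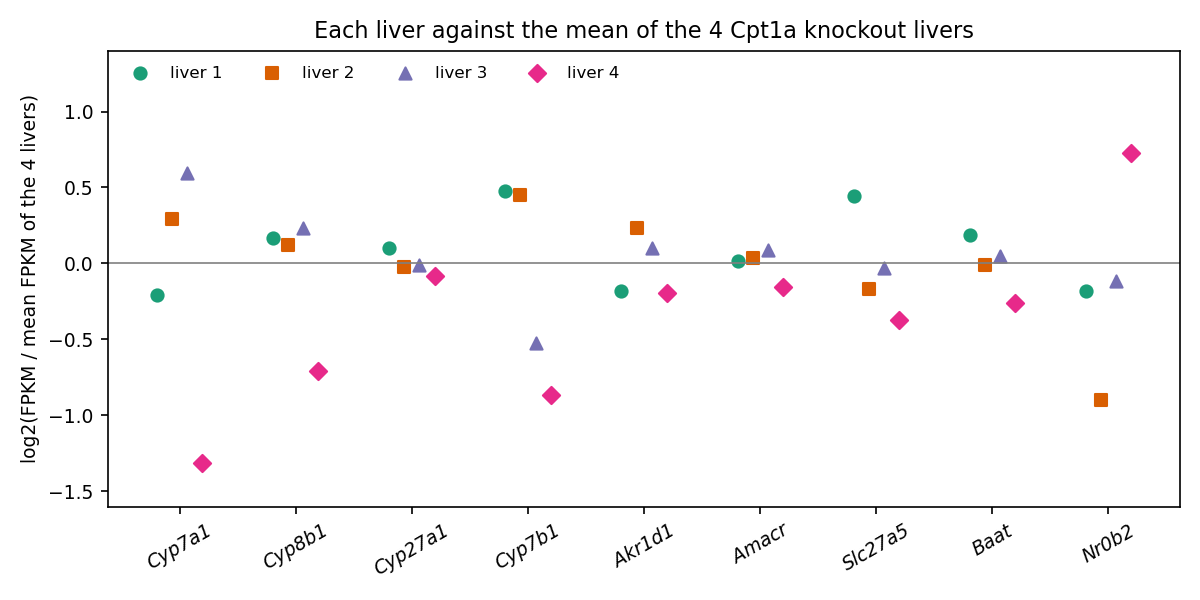
Each liver's FPKM over the mean of the 4 Cpt1a knockout livers, on a log2 scale, for 9 genes (Hsd3b7 is left out because liver 2 is at 0). Liver 4 is the lowest point for the 8 enzymes drawn and the highest point for Nr0b2.

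Against the reference group, the Cpt1a knockout had lower transcript levels of 4 of the 10 genes and higher levels of none. The 4 span the alternative route (Cyp27a1 and Cyp7b1), the ring reductase Akr1d1 and the bile acid ligase Slc27a5. Over about 16862 genes tested, 14.4% were called at an adjusted p below 0.05, 7.60% lower and 6.81% higher. Cyp7b1 was 2.79-fold lower in the knockout (log2 fold change -1.48, adjusted p = 3.13e-04) by the authors' deposited table. Slc27a5 was 2.29-fold lower (-1.20, adjusted p = 2.65e-07), and Akr1d1 2.14-fold lower (-1.10, adjusted p = 4.31e-08), by the authors' deposited table. Cyp27a1 changed least of the 4, with a 1.80-fold lower level (-0.84, adjusted p = 1.03e-05) by the authors' deposited table. In bulk liver, fewer hepatocytes and less transcript per hepatocyte cannot be told apart.

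The other 6 genes are not in that table, whose unadjusted p-values end at 0.05. Adding the log2 fold changes of the other 2 deposited tables gave -0.14 for Cyp7a1, -0.29 for Cyp8b1, -0.23 for Amacr, -0.32 for Baat, -0.55 for Hsd3b7 and -0.88 for Nr0b2. For the 4 listed genes such sums came within 0.014 of the authors' deposited table. The median of the sums was -0.70 over the 10 genes, Hsd3b7 included, and 0.00 over the 13791 genes that averaged 10 or more counts. Cyp7a1, the step that sets the rate of the classic route, thus was not called, and its sum was the closest to 0 of the 10. That sum has no p-value, and Cyp7a1 ranged 3.75-fold over the Cpt1a knockout livers, so an unchanged level is not shown.

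In the Cpt2 group 8 of the 10 genes were lower than in the reference group and none higher, where 21.0% of 17475 genes tested were called, 10.7% lower and 10.3% higher. The median log2 fold change was -1.08 over the 10 genes and -0.03 over all genes tested. Akr1d1 was 22.5-fold lower in the Cpt2 group (log2 fold change -4.49, adjusted p = 8.21e-56) by the authors' deposited table. Nr0b2 was 15.4-fold lower (-3.95, adjusted p = 5.49e-18) and Cyp7a1 was lower by a log2 fold change of -3.46 (adjusted p = 5.79e-05) by the authors' deposited table. Nr0b2 and Cyp7a1 were both lower in the Cpt2 group, while Cyp8b1, which Nr0b2 also represses, was not called. A link between these levels was not tested.

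Changes were smaller for the other called genes of that comparison. Cyp7b1 was 4.93-fold lower in the Cpt2 group (log2 fold change -2.30, adjusted p = 4.09e-13) by the authors' deposited table. Slc27a5 was 2.49-fold lower (-1.32, adjusted p = 3.77e-18) and Baat 1.79-fold lower (-0.84, adjusted p = 3.41e-04) by the authors' deposited table. The first hydroxylase of the alternative route and the side chain racemase moved least, with Cyp27a1 1.67-fold (-0.74, adjusted p = 1.21e-04) and Amacr 1.56-fold (-0.64, adjusted p = 2.82e-04) lower by the authors' deposited table. Cyp8b1 was not called by the authors' deposited table (0.32, adjusted p = 0.344), and neither was Hsd3b7 (0.65, adjusted p = 0.439).

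**Figure D4:**
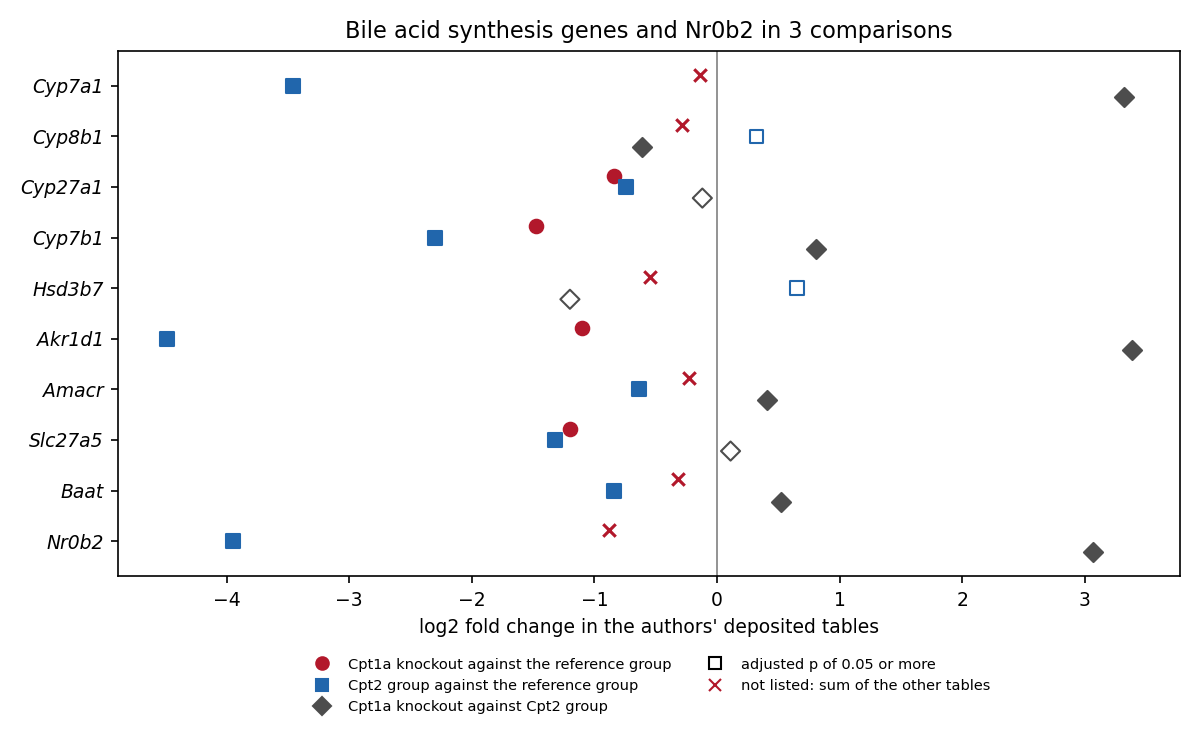
Log2 fold changes of the 10 genes in the 3 deposited comparisons, with filled markers for an adjusted p below 0.05, open markers for genes not called and crosses for the sum of the other tables where a gene is not listed. Akr1d1, Nr0b2 and Cyp7a1 lie furthest to the left in the Cpt2 group and furthest to the right where the Cpt1a knockout is set against it.

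The direct comparison of both knockouts tests where their transcript levels differ, although sequencing batch and genotype cannot be told apart there. It called 7 of the 10 genes, 6 higher in the Cpt1a knockout and 1 lower, where 28.8% of 17755 genes were called, 14.2% higher and 14.6% lower. The median log2 fold change was 0.47 over the 10 genes and 0.05 over all genes tested. Akr1d1 was at a log2 fold change of 3.38 (adjusted p = 4.16e-33) by the authors' deposited table. Cyp7a1 was at 3.32 (adjusted p = 1.06e-05) and Nr0b2 at 3.07 (adjusted p = 2.44e-14) by the authors' deposited table. These 3 genes were 8.39-fold to 10.4-fold higher in the Cpt1a knockout.

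Differences were modest for the remaining called genes. Cyp7b1 was 1.75-fold higher in the Cpt1a knockout (log2 fold change 0.81, adjusted p = 0.0214), Baat 1.43-fold (0.52, 0.00886) and Amacr 1.33-fold (0.41, 0.0147) by the authors' deposited table. Cyp8b1 ran the other way, 1.52-fold lower in the Cpt1a knockout (-0.61, adjusted p = 0.00802) by the authors' deposited table. Cyp27a1 and Slc27a5 were lower in each knockout than in the reference group, and between the knockouts neither was called by the authors' deposited table (-0.12 with adjusted p = 0.539 for Cyp27a1, and 0.11 with adjusted p = 0.697 for Slc27a5). Hsd3b7 was not called by the authors' deposited table (-1.20, adjusted p = 0.513). Both comparisons with the reference group share its samples, and both comparisons with the Cpt2 group share that group's, so the 3 sets of values are not independent.

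Further enzymes of bile acid synthesis, taken as a list of 19 genes, moved in both directions. In the Cpt1a knockout 5 were lower than in the reference group and 2 higher, with Acox2, the peroxisomal oxidase of the bile acid side chain, at -1.50 (adjusted p = 1.02e-14) and Cyp39a1, an oxysterol hydroxylase, at -1.61 (7.88e-06) by the authors' deposited table. Por, which passes electrons to microsomal cytochromes P450, was at -1.20 (adjusted p = 4.72e-05), and Cyp2c70, which makes muricholic acids in mice, at -1.99 (0.0130), by the authors' deposited table. The 7 called genes are 36.8% of the list, where 14.4% of all genes were called. In the Cpt2 group 8 were lower than in the reference group and 3 higher, 57.9% of the list, where 21.0% of all genes were called. There Cyp2c70 was at -4.26 (adjusted p = 1.27e-08), the hydroxysteroid dehydrogenase Akr1c6 at -2.73 (1.86e-14) and Acox2 at -1.09 (1.63e-07) by the authors' deposited table. Abcd3, which imports side chain intermediates into peroxisomes, was at 0.87 (adjusted p = 2.81e-05) by the authors' deposited table. Between the knockouts 6 were higher in the Cpt1a knockout and 6 lower, 63.2% of the list against 28.8% of all genes, with Akr1c6 at 2.90 (adjusted p = 1.21e-21), Cyp2c70 at 2.26 (1.34e-06), Akr1c14 at 1.67 (2.97e-10) and Acnat2 at 1.60 (2.61e-13) by the authors' deposited table. Cyp2c70 was at 8.24, 3.26, 9.67 and 4.59 FPKM in the 4 Cpt1a knockout livers. Livers 1 and 3 were above livers 2 and 4 for it. Median log2 fold changes of this list were -0.54 for the Cpt2 group against the reference group and 0.04 between the knockouts.

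Regulators of the pathway were a list of 24 genes. The bile acid receptor Nr1h4 was at 57.2, 59.3, 63.4 and 59.7 FPKM in livers 1 to 4 and was called in no comparison (log2 fold change -0.10 with adjusted p = 0.752 in the Cpt2 group against the reference group, and 0.04 with adjusted p = 0.828 between the knockouts, by the authors' deposited tables). Nr5a2, which drives Cyp8b1 and Nr0b2, was at 12.7, 10.4, 9.39 and 8.26 FPKM, highest in liver 1 and lowest in liver 4. It was at -0.62 (adjusted p = 0.00561) in the Cpt2 group against the reference group by the authors' deposited table. Hnf4a was at 123 ± 17.1 FPKM (SD, n = 4) and at -0.70 (adjusted p = 0.0166) in the Cpt1a knockout against the reference group by the authors' deposited table. Fgfr4, the hepatocyte receptor of the gut hormone that lowers Cyp7a1, was at -1.05 (adjusted p = 1.04e-05) in the Cpt2 group by the authors' deposited table, and its co-receptor Klb, at -0.35, was not called (adjusted p = 0.228). Nr1i3, the receptor CAR, was at 1.60 (adjusted p = 8.66e-06) and the coactivator Ppargc1a at -1.23 (0.00264) in the Cpt1a knockout against the reference group by the authors' deposited table. Between the knockouts Cebpa, a hepatocyte transcription factor, was at 0.59 (adjusted p = 0.00141) and Fgfr4 at 0.57 (0.0120) by the authors' deposited table.

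Nfil3, a repressor that binds the D-box, was at -1.24 (adjusted p = 1.63e-05) in the Cpt1a knockout and -2.97 (3.60e-21) in the Cpt2 group, each against the reference group, by the authors' deposited tables. Between the knockouts Nfil3 was at 1.72 (adjusted p = 1.64e-10) by the authors' deposited table. Dbp, the activator at the same element, was at 1.14 (adjusted p = 0.00718) in the Cpt1a knockout and 1.17 (4.01e-04) in the Cpt2 group, and Nr1d1, a repressor of the clock, at 1.54 (1.82e-13) and 1.90 (1.23e-21), by the authors' deposited tables. Within the Cpt1a knockout livers Dbp was at 16.9, 17.5, 41.5 and 44.6 FPKM, so livers 3 and 4 lay above livers 1 and 2. The labels do not give the time of day at which livers were taken. Zfp36l1, an RNA-binding protein that speeds decay of Cyp7a1 transcript in mice, was at -1.08 (adjusted p = 1.32e-04) in the Cpt2 group and at 0.84 (2.40e-05) between the knockouts by the authors' deposited tables. In all, 4 regulators were lower and 3 higher in the Cpt1a knockout, 7 lower and 5 higher in the Cpt2 group, and 4 higher and 1 lower in the Cpt1a knockout against the Cpt2 group. Over all genes 14.4%, 21.0% and 28.8% were called in these comparisons, and the 5 regulators called between the knockouts are 20.8% of the list, below that background.

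Of 14 bile transporters, 3 were lower in the Cpt1a knockout than in the reference group and none higher, and 5 were lower and 2 higher in the Cpt2 group. Between the knockouts 4 were higher in the Cpt1a knockout and 1 lower. The 3 called in the Cpt1a knockout are 21.4% of the list and the 5 between the knockouts 35.7%, beside 14.4% and 28.8% of all genes, and in the Cpt2 group 7 of 14 were called where the share of all genes was 21.0%. Abcb11, the bile salt export pump and a target of FXR, was at -1.14 (adjusted p = 6.06e-05) in the Cpt1a knockout, -2.58 (1.07e-23) in the Cpt2 group and 1.44 (4.42e-07) between the knockouts by the authors' deposited tables. Slc10a1, which takes up bile acids from blood, was at -0.49 (adjusted p = 0.0560), -1.10 (1.31e-07) and 0.60 (5.39e-04) in the same order by the authors' deposited tables. Slco1a4, an organic anion carrier, was at -1.64 (adjusted p = 7.85e-06) and Atp8b1, a phospholipid flippase of the bile canaliculus, at -1.04 (3.70e-04) in the Cpt1a knockout by the authors' deposited table. In the Cpt2 group Atp8b1 was at -1.0 (adjusted p = 4.77e-05) and Slco1a1, another organic anion carrier, at -1.59 (2.93e-07) by the authors' deposited table. Between the knockouts Slco1a1 was at 1.94 (adjusted p = 1.37e-16) and Abcc3, an exporter to blood, at -1.15 (2.35e-05) by the authors' deposited table.

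Other genes described as FXR targets, a list of 8, had 4 lower and none higher in the Cpt1a knockout, and 4 lower and 2 higher in the Cpt2 group, where 14.4% and 21.0% of all genes were called. Between the knockouts 2 of 8 were called, both lower in the Cpt1a knockout, where 28.8% of all genes were called. Fetub, a secreted liver protein, was at -1.38 (adjusted p = 4.14e-15) and -0.97 (1.44e-10), while Fgf21, a fasting hormone, was at 2.74 (1.12e-04) in the Cpt2 group, by the authors' deposited tables. Sdc1, a heparan sulfate proteoglycan, was at -0.74 (adjusted p = 3.81e-04) in the Cpt1a knockout and -1.08 (1.78e-08) in the Cpt2 group by the authors' deposited tables. Kng1, the kininogen precursor, was at -0.74 (adjusted p = 0.00438) and -0.84 (1.45e-05) in the same order of groups, and complement C3 at -0.98 (0.00173) in the Cpt1a knockout, by the authors' deposited tables. Between the knockouts Fgf21 was at -1.58 (adjusted p = 5.14e-06) and Fetub at -0.42 (0.0234), while Pltp at -0.46 (0.0691) and Osgin1 at 0.51 (0.142) were not called, by the authors' deposited table.

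**Figure D5:**
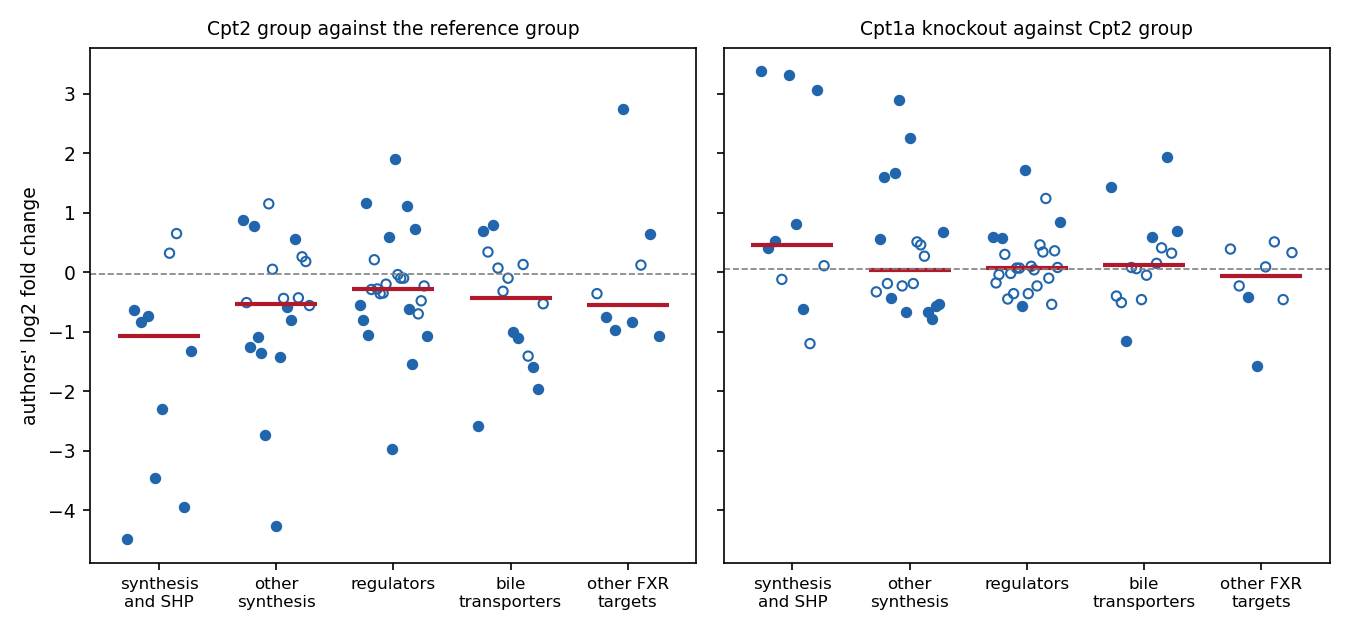
Log2 fold changes of the 10 genes and the 4 lists around them in the Cpt2 group against the reference group (left panel) and of the Cpt1a knockout set against that group (right panel). Filled points have an adjusted p below 0.05, red bars are list medians (-1.08 and 0.47 for the 10 genes) and the dashed line is the median of all genes tested.

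Over all genes, 14.4% were called in the Cpt1a knockout and 21.0% in the Cpt2 group against the reference group, and 28.8% between the knockouts. Periportal markers were lower than in the reference group for 8 of 8 in the Cpt1a knockout and 7 of 8 in the Cpt2 group, and none was higher. Of 9 pericentral markers 4 were lower and 2 higher in the Cpt1a knockout, and 8 were lower and 1 higher in the Cpt2 group. Hepatocyte markers were lower for 4 of 7 in the Cpt1a knockout and 5 of 7 in the Cpt2 group, and none was higher. Between the knockouts 1 of 7 hepatocyte markers was called, lower in the Cpt1a knockout, and the list's median log2 fold change was -0.04. The 1 called marker is 14.3% of the list, below the 28.8% of all genes. In the same comparison 5 of 8 periportal markers were higher in the Cpt1a knockout, and of 9 pericentral markers 6 were higher and 1 lower. Kupffer cell markers were called for 7 of 7 between the knockouts, 6 of them higher in the Cpt1a knockout, and 3 of 6 lymphocyte markers were higher there. Of 5 endothelial markers 2 were higher there, and of 5 stellate cell markers 1 was higher and 1 lower. Relative to the reference group, 1 endothelial marker was lower in the Cpt2 group and 1 stellate cell marker was higher in the Cpt1a knockout. Against the reference group, 1 Kupffer cell marker was higher in the Cpt1a knockout, and in the Cpt2 group 1 was higher and 3 were lower. Lymphocyte markers were higher for 2 of 6 in the Cpt1a knockout than in the reference group. No neutrophil or exocrine pancreas marker was called in any of the 3 comparisons, but of 4 each, only 2 neutrophil and 0 pancreas markers had an adjusted p in the Cpt2 group against the reference group. Of 7 bile duct markers 1 was lower in the Cpt2 group than in the reference group, and 1 was higher in the Cpt1a knockout than in the Cpt2 group. Each is 14.3% of the list, below the share of all genes called in that comparison. In the 4 Cpt1a knockout livers lymphocyte markers summed to between 2.89 and 3.29 FPKM, neutrophil markers to between 2.24 and 3.81 FPKM and exocrine pancreas markers to between 0 and 6.65 FPKM. All 4 pancreas markers were above 0 in liver 1 only, led by Ctrb1 at 4.02 FPKM. The part of these differences in the values of the bile acid genes was not tested.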

How the data were processed

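RNA was taken from frozen liver and sequenced by Novogene, per the labels' protocols. The submitters' processing notes name HISAT2 and the builds GRCm38 and mm10. No source used here names the counter, its annotation release, its use of strand or the authors' test. The deposited count table holds raw read counts per gene, and the deposited FPKM table holds the authors' values scaled by gene length and library size. The count table also has 8 per-sample columns of no sample in this series, which were not used. The authors' 3 deposited comparison tables give log2 fold changes, p-values with adjusted p-values, and counts scaled between libraries (a signal per liver). The authors' mean of the Cpt1a knockout group equalled the mean over its 4 livers, and the tables' group means of the other groups were not used.

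The series holds 1 group, so no test was fitted: the authors' adjusted p below 0.05 made a call, and levels were summarised as mean and SD over 4 livers. An adjusted p of exactly 1 was read as not adjusted. The number of genes behind the partial table, 16862, was worked out from its p-values and their ranks. TMM factors came from edgeR 4.0.16 in R 4.3.3, and other steps used Python 3.11.15 with pandas 2.3.3. The adjustment and the scaling were tested on simulated data, and the motif scan on a made-up sequence with planted sites. Named were all members, and of each list around them the 4 genes that ranked first by adjusted p in a comparison, with further regulators as examples. Members and lists were chosen with earlier results of these data known.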

Additional observations from a re-analysis of the deposited data

Results flagged for a closer look

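Among the 10 genes and 3 level ratios examined over the 4 livers, Cyp8b1 stood apart, with liver 4 at 190 FPKM and the others between 336 and 364. The gap was 0.840 of the whole range, above the critical value of Dixon's test for 4 samples, which chance passes in about 1 in 20 groups. Transcript levels differed between the Cpt1a knockout and the Cpt2 group for 7 genes in the authors' deposited table that compares them. Sequencing batch and genotype cannot be told apart in that comparison. Log2 fold changes there were 3.38 for Akr1d1, 3.32 for Cyp7a1, 3.07 for Nr0b2, 0.81 for Cyp7b1, 0.52 for Baat, 0.41 for Amacr and -0.61 for Cyp8b1.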

How the results depend on the processing

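Counts of called genes kept within 1.5 times under an adjusted p below 0.01, an unadjusted p below 0.05 and, for the full tables, an adjustment recomputed over genes averaging 10 or more counts. Requiring also a change of 1 or more on the log2 scale left 5 of 8 genes in the Cpt2 group against the reference group and 3 of 7 in the Cpt1a knockout against the Cpt2 group. Subtracting the median of all genes changed the direction of none of the 24 listed log2 fold changes. The medians were -0.01 for the Cpt2 group against the reference group and 0.03 between the knockouts. The smallest listed change was 0.11 (Slc27a5 between the knockouts), so this step could hardly change a direction. TMM scaling moved no mean FPKM by more than 1 SD. Its factors were between 0.964 and 1.019, so a mean over the same livers could hardly move. Without liver 3 the mean of Hsd3b7 was 0.0846 FPKM, against 0.251 over all livers, and the mean ratio of Cyp7a1 to Cyp7b1 was 0.639, against 0.940. Apart from the mean of Hsd3b7, no mean FPKM or ratio moved by more than 1.5 times when 1 liver was left out. TPM in place of FPKM moved all 10 means, since TPM is on another scale. The SD between livers moved by over 50% of its size for 1 gene with a pseudocount of 0.1, for 3 genes without liver 4 and for 1 gene each without liver 1 or 3. Without liver 4 the mean of Cyp7a1 was 40.5 FPKM, and that of Nr0b2 8.28 FPKM. No paired analysis was possible because the series holds 1 group. The depth of the Cpt2 and reference libraries was not analysed here.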
